A study of Mus musculus with 8 samples.

Results

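In mouse embryonic stem cells, 1359 bins of 100 kb had a lower compartment score in both libraries lacking SUV39H1 and SUV39H2 than in both libraries of the matching wild-type (WT) line. A bin was counted where the higher knockout score lay at least 0.003 below the lower WT score. The rule was applied to the 23702 autosomal bins scored in all 8 libraries outside chromosome 1 from 3 to 30 Mb, and it called 5.73% of them. The score derives from the first eigenvector of a Hi-C contact map, a map of how often pairs of loci touch in fixed nuclei. It has no physical unit, a positive value marks the A compartment (open, active chromatin) and a negative value marks the B compartment (compact, inactive chromatin). The deposited values average 0 on each chromosome with squares that add up to 0.832 to 0.997, as if a mean had been taken off, so where 0 falls between A and B is uncertain. The bins were selected on the 4 Suv39h scores, so the size of the SUV39H1/2 difference in them is given only as a description and carries no test.

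All cells were mouse embryonic stem cells grown on gelatin in the presence of LIF, and the 8 groups held 1 library each. Suv39h WT (clone ADF1-26) and Suv39h DKO (clone ADF157, which lacks SUV39H1 and SUV39H2) were each examined untreated and after 2 µM UNC0642 for 3 days (Suv39h WT + UNC and Suv39h DKO + UNC). UNC0642 blocks the catalytic activity of the methyltransferases G9a and GLP. The Setdb1 line (#33-6) carries a conditional knockout of Setdb1 and was examined untreated (Setdb1 WT), with UNC0642 at the same dose (Setdb1 WT + UNC), after 800 nM 4-hydroxytamoxifen (4-OHT) for 5 days to deplete SETDB1 (Setdb1 KO), and after 2 days of 4-OHT followed by UNC0642 (Setdb1 KO + UNC). The Suv39h genotypes are each represented by a single, different clone, and an effect of the clone cannot be told apart from that of the deletion. No group has a replicate among these files, which means that no difference has a replicate check. The study reports how closely compartment scores correlated between repeats of each Hi-C group. Libraries of the same line, which differ in treatment or genotype, correlated about as closely here (mean Pearson r 0.972 to 0.985). Whether the gaps between the groups exceed the differences between repeats was not tested. Where scores of a pair are given, the untreated library comes before the library with UNC0642. All 4 Setdb1 libraries are independent of the rule that chose the bins.

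SUV39H1 and SUV39H2 place methyl groups on lysine 9 of histone H3 (H3K9) and are best known for H3K9 trimethylation at the satellite repeats around centromeres, where the mark is bound by HP1 proteins. SETDB1 trimethylates H3K9 at many endogenous retroviruses and imprinted or germline genes, and G9a and GLP together dimethylate H3K9 over broad domains. H3K9-methylated chromatin tends to lie at the nuclear lamina and in the B compartment. The comparison asks where, on the chromosome arms, loss of the SUV39H pair went with a shift of chromatin towards B.

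The gene starts inside the bins were of more than 1 kind. To show the range, 250 bases upstream of 4 gene starts in the most extended or most changed places are given, taken from RefSeq (GRCm38.p6), 5′ to 3′ on the strand of the gene, with every CG dinucleotide in capitals. All 4 are starts at which RefSeq and GENCODE vM21 place the same base. Vps13a (chr19:16780934-16781183, minus strand) and Ttc28 (chr5:110879553-110879802, plus strand) have CG-rich starts, and Fbp1 (chr13:62888283-62888532, minus strand) and Esp38 (chr17:39950270-39950519, plus strand) have CG-poor starts in the A and B compartment, respectively.
Vps13a: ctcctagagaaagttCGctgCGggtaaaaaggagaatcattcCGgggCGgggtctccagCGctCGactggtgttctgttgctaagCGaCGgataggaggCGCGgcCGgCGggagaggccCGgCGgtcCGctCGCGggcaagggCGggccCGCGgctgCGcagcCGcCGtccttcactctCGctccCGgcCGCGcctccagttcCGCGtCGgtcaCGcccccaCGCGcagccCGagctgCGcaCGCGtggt
Ttc28: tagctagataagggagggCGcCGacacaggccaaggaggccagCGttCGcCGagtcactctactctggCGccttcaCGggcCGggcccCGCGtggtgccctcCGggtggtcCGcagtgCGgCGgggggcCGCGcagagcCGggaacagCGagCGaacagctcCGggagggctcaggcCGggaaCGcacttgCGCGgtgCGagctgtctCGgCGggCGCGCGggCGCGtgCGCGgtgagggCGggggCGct
Fbp1: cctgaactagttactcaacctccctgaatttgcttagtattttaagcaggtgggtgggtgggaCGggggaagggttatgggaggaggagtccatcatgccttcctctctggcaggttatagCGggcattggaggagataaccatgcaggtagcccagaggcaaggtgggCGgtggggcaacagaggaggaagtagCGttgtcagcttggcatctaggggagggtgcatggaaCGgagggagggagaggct
Esp38: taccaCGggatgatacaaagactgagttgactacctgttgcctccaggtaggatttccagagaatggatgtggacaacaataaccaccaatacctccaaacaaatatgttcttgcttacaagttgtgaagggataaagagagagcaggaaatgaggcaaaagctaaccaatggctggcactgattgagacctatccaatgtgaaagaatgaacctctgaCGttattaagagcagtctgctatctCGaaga
These stretches held 37, 36, 5 and 3 CG dinucleotides, respectively (CG reads the same on both strands). Over the 953 starts in the losing bins that matched RefSeq, the median was 13 CG per 250 bases and 58.7% had 10 or more, against 11 and 53.6% over all 15606 matched starts. Among starts in the A compartment of Setdb1 WT the share with 10 or more was 70.6% in the losing bins and 63.4% in all, and in the B compartment it was 17.0% and 22.8%.

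The fall in score was small at nearly all of the bins. The gap between the groups ran from 0.003 to 0.0174 with a median of 0.00445, reached 0.005 in 522 bins (38.4%) and reached 0.01 in 35 bins (2.58%). The median difference between the DKO and WT means was -0.00728 (quartiles -0.00931 and -0.00576), and it was -0.00712 in the untreated pair and -0.00691 in the pair with UNC0642. Over all 23702 bins the quartiles of the same difference were -0.00252 and 0.00273. At the threshold, the 3 bins just inside had gaps of 0.003, 0.003002 and 0.003002 and overlapped Gtdc1 and Zeb2, Sema3f, Rbm5 and Rbm6, and Dlk2, Abcc10 and Zfp318. The 3 bins just outside had 0.002996, 0.002996 and 0.002995, 2 of them without a protein-coding gene and the other overlapping Adam28.

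Before the Setdb1 libraries are used, their likeness has to be stated. Setdb1 WT + UNC correlated less well across the 23972 bins with its own line (mean Pearson r 0.972) than with the Suv39h line (0.976), whereas the other 7 libraries were closer to their own line (0.978 to 0.985 against 0.960 to 0.971). The main results that rest on it are therefore given also without it. All 14 mESC markers examined, Pou5f1, Nanog and Sox2 among them, lay in A in all 8 libraries. Chromosome 1 from 3 to 30 Mb was left out by the rule, and 63 of its 270 bins (23.3%) met the same margin.

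The losing bins lay in both compartments and were not gathered at their border. In Setdb1 WT, which played no part in choosing them, 688 (50.6%) were in A and 671 in B, against 44.4% in A over all bins and 43.6% of the 1536 bins (6.48%) that gained score by the mirror rule. Strongly positive bins were frequent: 515 (37.9%) had a Setdb1 WT score of at least 0.02, against 27.8% of all bins, and 186 (13.7%) lay within 0.01 of 0, against 19.8%. When all bins were sorted by Setdb1 WT score into 10 equal classes, the losing share was 5.06% in the most negative class, 6.16% in class 3, 3.59% in class 6 at the border and 8.52% in the most positive class. The gaining share ran the other way, from 3.25% over 10.9% in class 6 to 2.70%. The distribution depended on the scaling: after quantile normalisation of the 8 libraries, the losing share was 3.25% in class 1, 5.99% in class 6 and 4.93% in class 10.

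**Figure D1:**
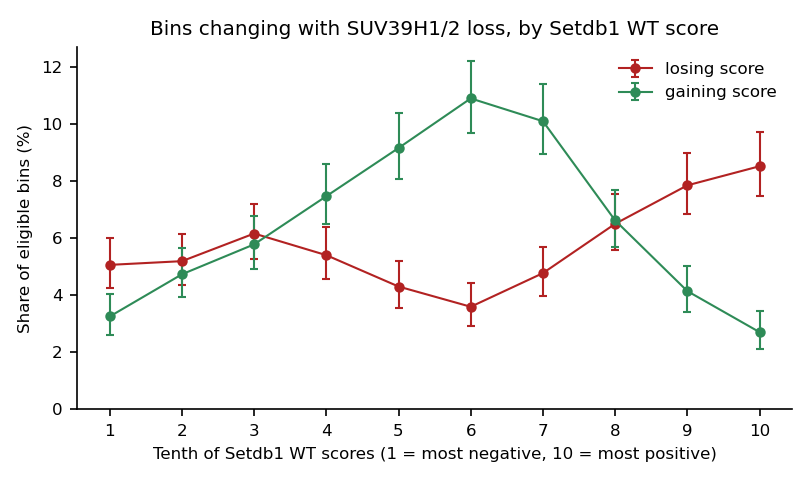
Share of the 23702 eligible 100-kb bins that lost (red) or gained (green) score with SUV39H1/2 loss, by class of Setdb1 WT score from 1 (most negative, B) to 10 (most positive, A). Points are percentages and bars are 95% Wilson intervals, which cover counting error only and are too narrow because neighbouring bins share contacts. The losing share is lowest in class 6 (3.59%) and highest in class 10 (8.52%), and the gaining share peaks in class 6 (10.9%).

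The share in A was higher in the losing bins than overall under each other scaling or centring (45.2% against 38.8% to 67.0% against 45.3%). It depended on the libraries, since it was 42.9% when the rule was applied without Suv39h DKO + UNC and 46.0% to 51.5% without each of the other 3 Suv39h libraries. The median distance of a losing bin from the nearest change of sign in Setdb1 WT was 750 kb, compared with 550 kb for all bins and 250 kb for gaining bins. Bins within 100 kb of such a border made up 11.4% of losing, 14.9% of all and 26.1% of gaining bins.

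Few of the bins crossed from A to B. The score was positive in both Suv39h WT libraries and negative in both Suv39h DKO libraries in 40 losing bins (2.94%), and in 62 of all bins (0.262%). A further 621 (45.7%) were A in all 8 libraries and 607 (44.7%) were B in all 8. The 4 Setdb1 libraries split over the 40 crossing bins: 9 were A in all 4, 8 were B in all 4, and the rest were mixed. Crossing was read from the 4 Suv39h scores that chose the bins, so its higher share there is built into the rule. It also depends on where 0 falls, which is uncertain by an implied chromosome mean of 0.00165 to 0.0112.

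The bin of Arid4b (chr13:14100001-14200000), a retinoblastoma-binding chromatin protein, showed the widest gap of the 9 crossing bins that were A in all Setdb1 libraries. Suv39h WT scored 0.00817 and 0.00852 and the DKO -0.00369 and -0.00244, while Setdb1 WT scored 0.0132 and 0.00525 and Setdb1 KO 0.0230 and 0.0172. Only the Suv39h DKO libraries were below 0 there. The bin of Hace1 (chr10:45500001-45600000), a ubiquitin ligase, showed the widest gap of the 8 that were B in all Setdb1 libraries. It scored 2.13e-05 and 0.00521 in the Suv39h WT libraries, -0.0104 and -0.00854 in the DKO libraries, and between -0.0127 and -0.00818 in the Setdb1 libraries. There, the Setdb1 line stood with the DKO. Crossing bins recurred on chromosome 11, where those of Bcas3, Tbx4 (a limb transcription factor) and Brip1 (a helicase partner of BRCA1) lay inside 0.5 Mb. These genes were chosen after their values were seen.

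At the losing bins as a whole, the Setdb1 line stood midway between the Suv39h WT and DKO libraries. Suv39h WT had median scores of 0.00596 untreated and 0.00494 with UNC0642, and the DKO had -0.00286 and -0.00392. Setdb1 WT had 0.00131 untreated and -0.00202 with UNC0642, and Setdb1 KO had 0.00291 and 0.00249. Thus the Setdb1 medians, of which Setdb1 WT + UNC was the lowest, all lay between the groups. Bin by bin, the Suv39h WT mean exceeded the mean of the 4 Setdb1 libraries by a median of 0.00356 and the DKO mean was lower by a median of 0.00376 (difference -0.00376). Over all bins these medians were 0.000150 and -1.12e-05. The rule favours bins that are high in Suv39h WT and low in Suv39h DKO, so departures on both sides are built into the choice.

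**Figure D2:**
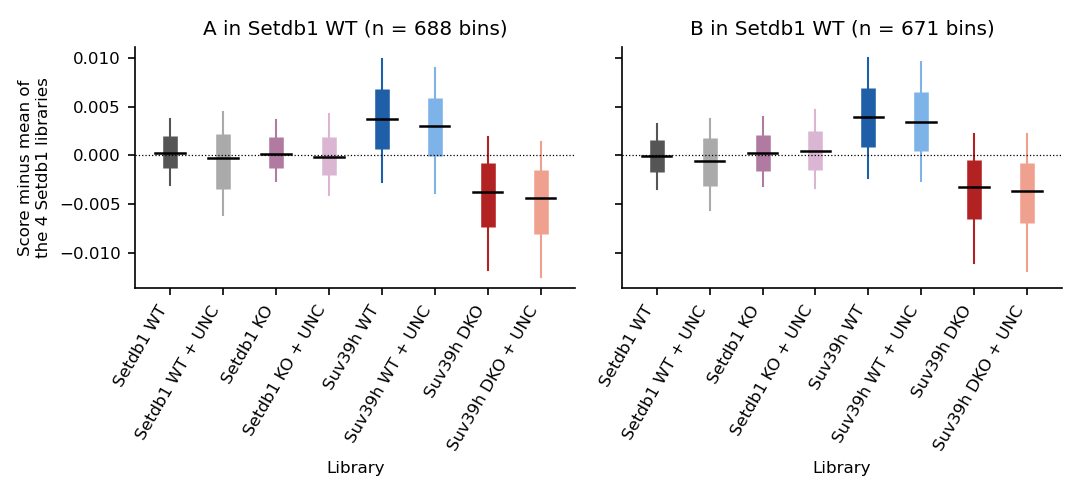
Score of each library minus the mean of the 4 Setdb1 libraries at the losing bins, for the 688 bins in A (left) and the 671 bins in B (right) in Setdb1 WT. Black lines are medians over bins, boxes run between the quartiles and thin lines from the 10% to the 90% quantile. The Suv39h WT and DKO libraries depart in opposite directions by similar amounts in both panels, with medians of 0.00379 and -0.00371 in A and 0.00394 and -0.00324 in B in the untreated libraries.

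The mean of the 4 Setdb1 libraries lay between the groups in 597 bins (43.9%), at or above the lower Suv39h WT score in 392 (28.8%) and at or below the higher DKO score in 370 (27.2%). Requiring all 4 libraries on the same side left 125 bins (9.20%) with the WT and 119 (8.76%) with the DKO. Without Setdb1 WT + UNC, the mean of the other 3 lay between the groups in 539 bins (39.7%), on the WT side in 431 (31.7%) and on the DKO side in 389 (28.6%).

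Most losing bins stood alone, although a losing neighbour was more frequent than around bins in general. They formed 1193 runs, of which 1061 were a lone bin, 103 held 2 bins, 24 held 3 and 5 held 4. A neighbouring losing bin was present for 298 (21.9%), against 10.8% of all bins, and another losing bin within 500 kb for 832 (61.2%), against 38.5%. Applied without 1 of the Suv39h libraries, the rule called more bins, and 34.3% to 50.0% of them had such a neighbour, against 23.2% to 27.8% of all bins. Gaining bins were next to each other in 25.6% of cases and reached runs of 5. The share of bins losing score ran from 3.01% on chromosome 8 (38 bins) to 9.09% on chromosome 19 (53 bins). These shares are not on a common scale. The squared scores add up to a similar total on every chromosome, so scores are typically larger where a chromosome has fewer bins. A fixed margin is then easier to meet, and a difference between chromosomes beyond this was not tested. The same limit applies where bins of all chromosomes were pooled by score or ranked by gap. Of the losing bins, 5.00% lay in the first 10 Mb of a chromosome and 3.38% in the last 5 Mb, against 5.26% and 4.00% of all bins, but the compartments differed. In B the shares were 6.56% and 4.02%, above the 4.85% and 2.60% of all B bins, and in A they were 3.49% and 2.76%, below the 5.77% and 5.75% of all A bins.

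Around the 1061 lone bins the difference was weaker but of the same sign. Its median was -0.00714 in the bin itself, -0.00128 at 100 kb and -0.00123 at 200 kb, and still -0.000904 at 500 kb and -0.000499 at 1 Mb. The share of flanking bins with a lower DKO than WT mean went from 64.2% at 100 kb to 55.3% at 1 Mb, with 49.0% over all bins. At 200 kb, 10.9% of the flanking bins met the margin themselves. At 100 kb none could, since the bins were chosen as lone.

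**Figure D3:**
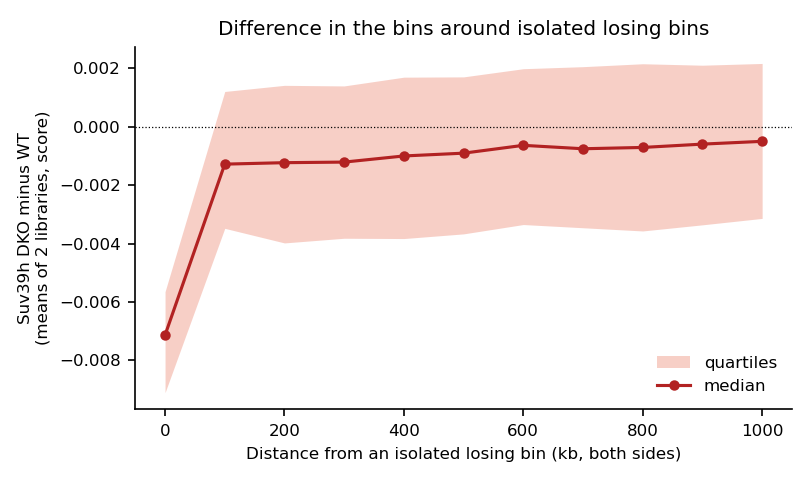
Difference between the means of the 2 Suv39h DKO and 2 Suv39h WT libraries in bins at increasing distance from the 1061 lone losing bins, both sides combined. The line is the median and the band runs between the quartiles. The median is -0.00714 at the bin, -0.00128 at 100 kb and -0.000499 at 1000 kb.

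In base composition the losing bins were poorer in GC than others of the same compartment strength. Their median GC content was 40.6%, compared with 41.5% for all bins and 42.9% for gaining bins, and repeats (soft-masked bases) made up a median of 33.6%, 31.6% and 28.2%. When bins were divided into 5 equal classes by Setdb1 WT score, the median GC content of the losing bins was below that of all bins in each: 37.7% against 38.0%, 38.2% against 39.2%, 39.9% against 41.4%, 42.4% against 43.9% and 44.5% against 46.3%. From the most GC-poor to the most GC-rich of 5 equal classes of bins, the losing share went down from 7.68% to 4.58%, while the gaining share went from 1.92% to 9.90% in class 4 and 7.30% in class 5. The median GC content of the bins the rule called lay between 39.1% and 40.8% under every alternative except removal of a linear GC fit from the scores, under which it was 42.0%.

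Gene content followed the compartment. Of all losing bins, 420 (30.9%) overlapped no protein-coding gene, against 35.2% of all bins, and 0.933 gene starts fell in a bin on average, against 0.870. In A, 7.27% of losing bins had no gene and 12.4% of all A bins. In B, the shares were 55.1% and 53.3%. Across the 5 classes of Setdb1 WT score, from the most negative to the most positive, losing bins held 0.436, 0.350, 0.561, 1.10 and 1.72 gene starts each, against 0.295, 0.371, 0.548, 0.989 and 2.15 for all bins. The classes at both extremes thus departed in opposite directions. In total, 1268 protein-coding genes started in 641 losing bins, 6.15% of the 20626 genes that could have.

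The 14 places described here are 9 of the 10 longest runs and the 5 other bins with the widest gaps. They overlap 29 protein-coding genes, and 9 of the 14 lay in A in Setdb1 WT. The mean of the Setdb1 libraries lay on the WT side (at or above the lower Suv39h WT score) in 5, between the groups in 5 and on the DKO side (at or below the higher DKO score) in 4.

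The widest gap of all, 0.0174, was in a bin in A (chr11:79300001-79400000) holding the start of Nf1, the gene of neurofibromin, which turns off Ras. Suv39h WT scored 0.0358 and 0.0327, and the DKO 0.0133 and 0.0153. Setdb1 WT scored 0.0251 and 0.0309 and Setdb1 KO 0.0280 and 0.0244, all in the gap between the Suv39h groups. A bin without a protein-coding gene in B (chr12:18900001-19000000) had the next widest gap. It went from -0.0201 and -0.0258 in the Suv39h WT libraries to -0.0419 and -0.0466 in the DKO libraries, and the mean of the Setdb1 libraries, which ran from -0.0284 to -0.0130, was on the WT side. The bin inside Brip1 (chr11:86100001-86200000), which the gene spans, went from 0.00731 and 0.00471 to -0.0111 and -0.0121, with the Setdb1 libraries between -0.000935 and 0.00263.

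The bin of Plek2, a pleckstrin-family protein, and Tmem229b (chr12:78900001-79000000) was in A in all libraries. It scored 0.0390 and 0.0398 in the Suv39h WT libraries, 0.0235 and 0.0243 in the DKO libraries and 0.0321 to 0.0366 in the Setdb1 libraries. UNC0642 moved none of these pairs by more than 0.000830. The bin of Vps13a (chr19:16700001-16800000), which encodes the lipid-transfer protein chorein and whose CG-rich start is printed above, behaved differently. It scored 0.0193 and 0.0191 in the Suv39h WT libraries and 0.00439 and -0.00279 in the DKO libraries, and its Setdb1 values of 0.00149, -0.00457, 0.00356 and 0.00545 (WT, WT + UNC, KO, KO + UNC) all lay far below Suv39h WT.

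**Figure D4:**
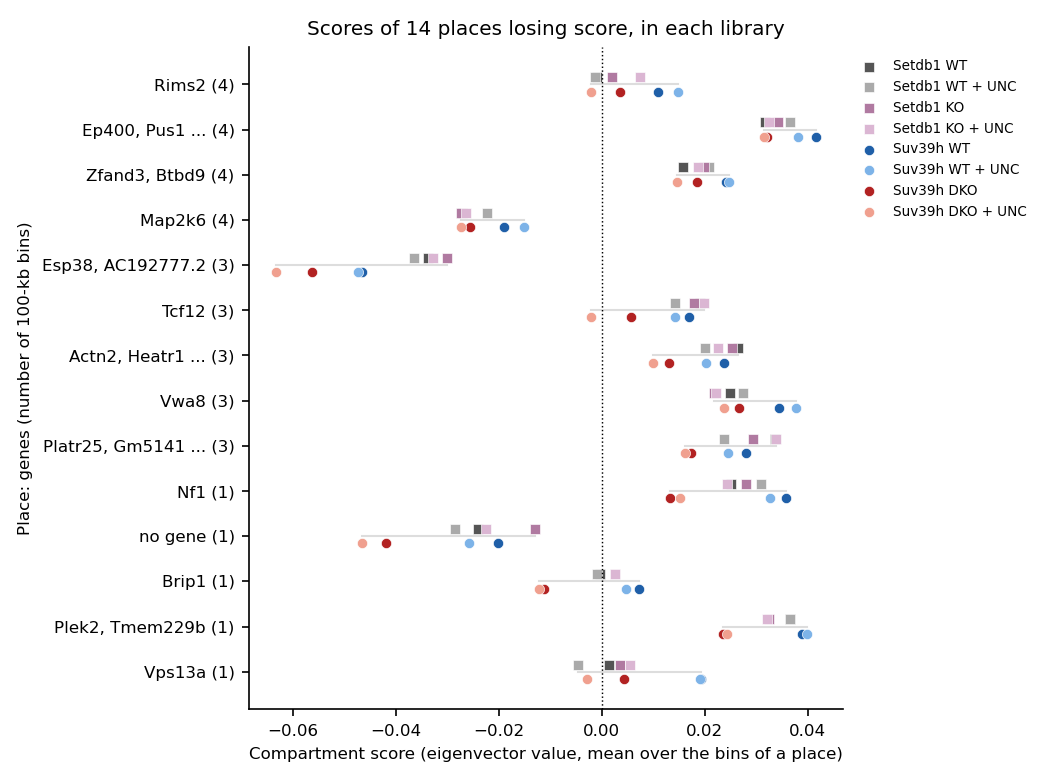
Compartment score in each of the 8 libraries at the 14 places described, labelled by up to 2 overlapping genes and, in parentheses, the number of 100-kb bins averaged. Squares are Setdb1 libraries and circles are Suv39h libraries. The dotted line marks 0. At every place both Suv39h DKO circles lie to the left of both Suv39h WT circles, as the rule requires, and the mean of the squares lies at or to the right of the lower WT circle in 5 (far to the right of both at Esp38), between the groups in 5 and at or to the left of the higher DKO circle in 4.

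In 2 of the 4 runs of 4 bins described the Setdb1 line stood with the DKO. The run at Rims2 (chr15:39300001-39700000), the gene of a presynaptic active-zone protein, reached past the end of the gene. It averaged 0.0109 and 0.0148 in the Suv39h WT libraries and 0.00356 and -0.00201 in the DKO. Setdb1 WT averaged -0.000978 and -0.00128 and Setdb1 KO 0.00203 and 0.00744. At the run next to and inside Map2k6 (chr11:110500001-110900000), a kinase that activates p38, all libraries were in B, with -0.0190 and -0.0150 in the Suv39h WT, -0.0256 and -0.0273 in the DKO and -0.0273 to -0.0223 in the Setdb1 libraries.

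The other 2 were in A and had the Setdb1 mean between the groups. That of Ep400, Pus1, Ulk1, Hscb, Chek2 and Ttc28 (chr5:110700001-111100000), among them a chromatin remodeller (Ep400), an autophagy kinase (Ulk1) and a DNA damage checkpoint kinase (Chek2), scored 0.0416 and 0.0381 against 0.0321 and 0.0315. That of Zfand3 and Btbd9 (chr17:30000001-30400000) scored 0.0241 and 0.0247 against 0.0185 and 0.0147.

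Among the 5 runs of 3 bins described, the mean of the Setdb1 libraries was at or above the lower Suv39h WT score in 4 of 5, in 1 of which (Esp38) it lay well above both Suv39h groups. At Tcf12 (chr9:71800001-72100000), a transcription factor that pairs with tissue-specific partners, the Suv39h WT libraries scored 0.0169 and 0.0142, the DKO libraries 0.00579 and -0.00201 and the Setdb1 libraries 0.0142 to 0.0199. At Actn2, Heatr1, Lgals8, Edaradd and Ero1lb (chr13:12300001-12600000), of which Actn2 is the alpha-actinin of muscle and Heatr1 serves ribosome production, the WT scored 0.0238 and 0.0202 and the DKO 0.0130 and 0.00999, and the Setdb1 libraries, up to 0.0265, were all above the DKO. At Platr25, Gm5141, Fbp2, Fbp1 and 2010111I01Rik (chr13:62700001-63000000), which includes both fructose-bisphosphatase genes of gluconeogenesis, the WT scored 0.0280 and 0.0246, the DKO 0.0174 and 0.0161 and the Setdb1 libraries 0.0238 to 0.0339.

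The deepest B run held Esp38 and AC192777.2 (chr17:39900001-40200000), Esp38 encoding a secreted peptide of the exocrine gland family. It scored -0.0466 and -0.0473 in the Suv39h WT and -0.0562 and -0.0632 in the DKO libraries. All 4 Setdb1 libraries, from -0.0365 to -0.0301, lay above both Suv39h groups, so this place separated the lines as well as the genotypes. At Vwa8 (chr14:78800001-79100000), which encodes a mitochondrial ATPase, Suv39h WT scored 0.0344 and 0.0378 and the DKO 0.0266 and 0.0237. Setdb1 WT, at 0.0250 and 0.0274, was close to the DKO, and Setdb1 KO, at 0.0219 and 0.0222, was below both DKO libraries.

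Because neighbours share a bin, the count for a clustered gene family rests on far fewer bins than genes. The share of genes starting in a losing bin is to be read against 6.15% of all genes, and against 5.19% for gaining bins. Olfactory receptor genes, the largest receptor family of the mouse, numbered 86 of 1128 (7.62%) in 21 losing bins, and 27 (2.39%) in gaining bins. After removal of the linear GC fit the olfactory share was 4.79%, below the 7.07% of all genes. Vomeronasal receptors, which detect pheromones, gave 13 of 199 (6.53%) for type 1 and 12 of 117 (10.3%) for type 2, with 6 and 1 in gaining bins. The type 2 genes lay in 8 bins, 5 of them between 18 and 20 Mb of chromosome 17. In the bin of Vmn2r91 and Vmn2r124 the score was -0.0201 and -0.0176 in the Suv39h WT, -0.0273 and -0.0342 in the DKO libraries, -0.0234 and -0.0244 in the Setdb1 WT and -0.0132 and -0.0148 in the Setdb1 KO libraries. The pair of Setdb1 KO libraries was higher than both Setdb1 WT libraries there.

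Clustered protocadherins, cell-surface proteins that give neurons individual identities, had 12 of 57 genes (21.1%) in losing bins and 0 in gaining bins, but these lay in 2 bins. A bin with Pcdhb9 to Pcdhb19 (chr18:37400001-37500000) held 11 gene starts, the most of any losing bin. It scored 0.0212 and 0.0205 in the Suv39h WT, 0.00812 and 0.0118 in the DKO, 0.0182 and 0.00900 in the Setdb1 WT and 0.0211 and 0.0153 in the Setdb1 KO libraries. Each library with UNC0642 was below its untreated partner in the Setdb1 line. Keratins contributed 12 of 110 genes (10.9%) in 3 bins and 13 in gaining bins, and Zfp and Zscan zinc finger genes 21 of 412 (5.10%) in 17 bins. Stefin A protease inhibitors gave Stfa2 and Stfa3 in the same bin, and defensins Defb48 and Defb47 in the same bin.

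The smaller gene lists are given as counts, which were too low to be set apart from the share of all genes. None of 20 pluripotency genes, 39 Hox genes, 23 cadherins or 20 interferons started in a losing bin, and with so few genes the 95% Wilson upper limits were 16.1%, 8.97%, 14.3% and 16.1%. Of 37 genes of the H3K9 methylation machinery only Zfp644, a partner of G9a and GLP, did (2.70%, Wilson interval 0.479% to 13.8%, gap 0.00428), and 4 lay in gaining bins (Lbr, Lmna, Prdm2 and Cdyl). Germline genes gave 2 of 29 (6.90%), the testis bromodomain gene Brdt (gap 0.00747) and the piRNA-pathway gene Piwil4 (0.00375). The bin of Brdt scored 0.0134 and 0.0118 in the Suv39h WT libraries, 0.00400 and 0.00428 in the DKO libraries, and 0.00810 and 0.00904 in Setdb1 WT, and 0.0104 and 0.00359 in Setdb1 KO. Genes of the 2-cell stage gave 1 of 22 (4.55%, Eif1a) against 4 in gaining bins.

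Imprinted genes gave 3 of 40 (7.50%), Mkrn3 and Peg12 of the Prader-Willi region in a shared B bin and Phlda2 in A. Of 127 lineage regulators, 6 started in losing bins (4.72%), among them Spi1 of blood cells, Hnf4g of gut, Neurog1 of neurons, Runx2 of bone and Gata6 of primitive endoderm. They lay in both compartments. The bin of Runx2 was in B, with -0.00255 and -0.000619 in the Suv39h WT, -0.00644 and -0.0107 in the DKO and -0.0164 to -0.0107 in the Setdb1 libraries. The bin of Spi1 was in A, with 0.0466 and 0.0467, 0.0398 and 0.0375, and 0.0372 to 0.0396. In both bins all 4 Setdb1 libraries lay below both Suv39h WT libraries. Of 85 long neuronal genes, 5 (5.88%) started in losing bins, among them Immp2l in A and Cntnap5a, Csmd3 and Lsamp in B. Ribosomal protein genes, which are active in all cells, gave 4 of 74, or 5.41% (Rpl9, Rpl6, Rpl27a and Rps27l).

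The losing bins did not fall more often than others with SETDB1 loss. By the same rule applied to the Setdb1 libraries, 53 losing bins (3.90%) fell and 86 (6.33%) rose, whereas 5.29% of all bins fell and 5.56% rose. The median difference between the means of the 2 Setdb1 KO and 2 Setdb1 WT libraries was 0.000323 in losing bins and -0.000308 in all bins. In the untreated pair it was 7.92e-05, against -0.000126 over all bins, and in the pair with UNC0642 it was 0.000634, against -0.000456. Without Setdb1 WT + UNC 9.42% of losing bins fell and 12% rose, against 10.7% and 10.4% of all bins, and the median was 0.000102, against -9.75e-05. Leaving out each other Setdb1 library gave medians of 0.000313 to 0.000645.

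The rises were unevenly divided between the compartments. Of the 671 losing bins in B, 60 (8.94%) rose with SETDB1 loss and 22 (3.28%) fell, while 5.73% of all B bins rose and 5.50% fell. Of the 688 in A, 26 (3.78%) rose and 31 (4.51%) fell, against 5.34% and 5.03% of all A bins. With each Setdb1 library left out in turn the margin was met more often, and the rising share in B was higher in losing bins each time, from 15.5% against 10.9% without Setdb1 WT + UNC to 24% against 17.3% without Setdb1 WT. Bins that gained score with SUV39H1/2 loss fell with SETDB1 loss in 143 of 1536 cases (9.31%), against 5.29% of all bins. They rose in 87 (5.66%), against 5.56%. Their median SETDB1-loss difference was -0.000471 in the untreated pair, and -0.00216 in the pair with UNC0642, which contains Setdb1 WT + UNC. Over all bins these medians were -0.000126 and -0.000456.

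By the size of the change, 12 losing bins (0.883%) fell and 20 (1.47%) rose by 0.01 or more from Setdb1 WT to Setdb1 KO, beside 0.869% and 1.40% of all bins, which was no departure from the background. In the pair with UNC0642, 54 (3.97%) fell and 128 (9.42%) rose, beside 5.85% and 7.10%, and this pair contains the library that stood apart.

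**Figure D5:**
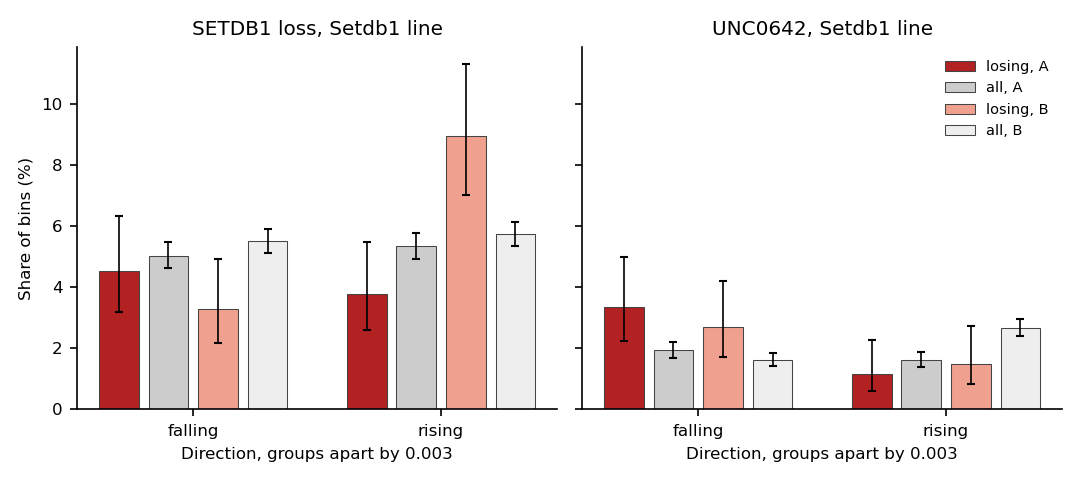
Share of bins in which the 2 libraries of a group lie at least 0.003 below (falling) or above (rising) the 2 libraries of the other group in the Setdb1 line, for SETDB1 loss (left) and UNC0642 (right). Bars show losing bins (red, in A or B in Setdb1 WT) and all eligible bins (grey), and error bars are 95% Wilson intervals, which cover counting error only. Losing bins in B rose with SETDB1 loss in 8.94%, against 5.73% of all B bins.

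Tested bin by bin with limma over 23972 bins, SETDB1 loss gave 0 calls (0%) after Benjamini-Hochberg adjustment at 0.05, with 0.485 as the lowest adjusted value. Taking p under 0.05 before adjustment, 76 losing bins rose (5.59%) and 37 fell (2.72%), beside 4.63% and 3.19% of all bins. The fit had 1 residual degree of freedom, to which the prior added 6.88. Without Setdb1 WT, in the fit of the remaining 7 libraries, 343 bins rose (1.43%) and 105 fell (0.438%). This fit takes much of its spread from the Suv39h libraries, which chose the losing bins, so its calls are not read for those bins, and Setdb1 WT + UNC alone stood there for the WT genotype. Without Setdb1 WT + UNC, in the same kind of fit, no bin was called. Of the 14 places, SETDB1 loss differences were above 0 in both pairs in 5 and below 0 in both in 3, and the lowest adjusted p in any of them by limma was 0.526.

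UNC0642 went with more falls than rises in the losing bins of the Setdb1 line by the rule of 0.003, but not when Setdb1 WT + UNC was left out. By the same rule, 41 losing bins (3.02%) fell and 18 (1.32%) rose with UNC0642, while 1.75% of all bins fell and 2.19% rose. The median difference was -0.000382 in losing bins and 0.000114 in all bins. The 2 genotypes differed in sign: the median was -0.000647 for Setdb1 WT, against 0.000239 over all bins, and 8.10e-05 for Setdb1 KO, against 5.51e-06, a difference that was not tested. Leaving out Setdb1 WT + UNC, the library that stood apart, gave a median of 9.00e-06, with 11.3% of losing bins falling and 12.1% rising, against 9.72% and 9.94% of all bins. By limma no bin was called for UNC0642 (0%, lowest adjusted p 1), and at an unadjusted p under 0.05, 34 losing bins fell (2.50%) and 6 rose (0.442%), against 1.60% and 1.10% of all bins. In the Suv39h libraries, which chose the bins, UNC0642 differences had medians of -0.000435 in WT and -0.000409 in DKO cells.

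The bins with the widest gaps showed the largest median differences in the Setdb1 line. SETDB1 loss gave medians of 0.000199 in the 837 bins with gaps under 0.005, 0.000411 in the 487 from 0.005 to 0.01 and 0.00248 in the 35 at 0.01 and over. For these 35 the median was 0.00207 in the untreated pair and 0.00211 with UNC0642, and the median UNC0642 difference was -0.00238 for Setdb1 WT and -0.00152 for Setdb1 KO. Without Setdb1 WT + UNC the SETDB1-loss medians of the 3 classes were 2.71e-05, 0.000205 and 0.00190, and the UNC0642 medians 1.70e-05, 7.85e-05 and -0.000854. By the rule with a margin of 0.003, 2 of the 35 rose with SETDB1 loss (5.71%) and 1 fell (2.86%), beside 5.56% and 5.29% of all bins.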

How the data were processed

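For Hi-C, the authors digested chromatin with DpnII. Their reads were mapped to mm10 in the pipeline of the 4D Nucleome project, filtered to a mapping quality over 10 and binned with Juicer Tools. The deposited files hold compartment scores, which the authors took per autosome from KR-normalised intrachromosomal maps in 100-kb bins. Hi-C was repeated according to the methods, and which repeat, or whether a pool, a file holds is not given in the sources used here. The study lists read numbers for each library and repeat. They were not used here, because they could not be tied to a file and the files carry no counts per bin, so no depth-based error is given. Scores averaged 0 on each chromosome and their squares summed to under 1. This would follow if a mean of 0.00165 to 0.0112 had been subtracted from a unit eigenvector, a step inferred from the values and not described. Only a redistribution within a chromosome can be seen.

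Of 24005 bins, 23972 were present in all 8 libraries. Genes came from GENCODE vM21, and base composition and promoters from GRCm38, whose coordinates mm10 shares. A was a score above 0. SETDB1 loss and UNC0642 were tested in the 4 Setdb1 libraries with limma 3.58.1 in R 4.3.3 (genotype and UNC0642 as terms, Benjamini-Hochberg adjustment). The procedure was tried on simulated data with planted changes larger than the widest gap of the losing bins (0.0174). It was not tried at the smaller differences seen here, so 0 calls do not show that such differences are absent. The alternatives with all libraries or with a Setdb1 library left out also include the 4 Suv39h libraries, so they are not independent of the choice of the bins. Everything else is descriptive and was computed in Python 3.11.15. The bins, gene lists and named places were chosen with earlier results of these data known. Named places are the 10 longest runs of at least 2 bins (ties to the larger mean gap) and the 5 other bins with the widest gaps. Of these, 1 run is not reported here. Genes of the lists are named where they start in a losing bin, some of them not reported here. Alternatives were root-mean-square scaling per chromosome, quantile normalisation, adding or subtracting the implied chromosome mean, removal of a linear GC fit, other margins, paired differences, inclusion of chromosome 1 from 3 to 30 Mb, other limma settings and each library left out.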

Additional observations from a re-analysis of the deposited data

How the results depend on the processing

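No paired analysis was possible because each group has 1 library and the labels give no replicate numbers to pair libraries by. The rule on differences within treatment (untreated with untreated, UNC0642 with UNC0642) matched libraries by treatment only. Scaling, centring, GC removal and inclusion of chromosome 1 gave 1134 to 1523 losing bins. Margins of 0.002, 0.005 and 0.01 gave 2063, 522 and 35, the rule within treatment gave 2236, and leaving out a Suv39h library gave 3042 to 3862, since fewer libraries then had to differ. The share in A was 57.6% with the implied mean added, 45.2% with it subtracted, 67.0% after GC removal, 42.9% at a margin of 0.01 and 42.9% to 51.5% without a Suv39h library. The share next to another losing bin was 27.5%, 16.1% and 5.71% at the 3 margins, 33.5% within treatment and 34.3% to 50.0% without a Suv39h library. With SETDB1 loss, 6.88%, 1.15% and 0% of losing bins fell and 9.99%, 3.26% and 0% rose at the 3 margins, against 8.97%, 1.66% and 0.0422% and 8.45%, 2.54% and 0.304% of all bins. Without a library, 3.67% to 16.7% fell and 5.82% to 24.3% rose. Both upper ends came without Setdb1 WT, where 22.0% of all bins fell and 18.8% rose. Both lower ends came without a Suv39h library, where 5.29% of all bins fell and 5.56% rose. The median SETDB1-loss difference ranged from 6.80e-05 to 0.000645 and the UNC0642 difference from -0.000618 to 9.00e-06 without a library, and at a margin of 0.01 they were 0.00248 and -0.00190 (0.00190 and -0.000854 without Setdb1 WT + UNC). Without Setdb1 WT, limma made 448 calls for SETDB1 loss over all bins (1.87%) and 22 at losing bins (1.62%), in a fit that includes the Suv39h libraries that chose the bins. Every other limma setting gave 0 calls for SETDB1 loss, and all gave 0 for UNC0642. The checks of GC content, classes of Setdb1 WT score and olfactory receptor genes under these alternatives, and some values without Setdb1 WT + UNC, were added after the data were seen. In all, 202 of 305 values stayed within the tolerances set for them, a count that does not measure robustness. For the SETDB1-loss and UNC0642 medians the tolerance was the difference between the medians of the 2 pairs of libraries, which exceeded the medians themselves. The UNC0642 median of 9.00e-06 without Setdb1 WT + UNC was therefore counted as unchanged from -0.000382. Comparisons of 0 limma calls with 0 calls are also included. Precision is limited by 1 library per group, no depth per bin can be given, and clone and genotype cannot be told apart.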
